A study of Homo sapiens with 16 samples.

Results

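Dual-specificity phosphatases (DUSPs) remove phosphate from both phosphotyrosine and phosphoserine or phosphothreonine. A list of 10 DUSP genes, chosen by symbol, was looked up in the deposited gene tables of HCT-116 cells. The family was selected on measured values, because the translation and RNA of DUSP5 had stood out in comparisons of these data that are not used here, and what follows is a description with no test. Of the 10 genes, 6 were found in both tables among the 7386 genes that the tables share (8704 genes are in either table): DUSP3, DUSP4, DUSP5, DUSP6, DUSP11 and DUSP14. DUSP1, DUSP7, DUSP12 and DUSP16 are in neither table and were not analysed here.

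HCT-116 is a line from a colorectal carcinoma. The cells of every group expressed the rice auxin receptor OsTIR1 from a CMV promoter and carried the mAID degron on endogenous DDX3X, so that the auxin indole-3-acetic acid (IAA) leads to loss of the DDX3X protein, a DEAD-box RNA helicase. The degron line came from a single clone. There were 4 conditions: lentiDDX3Y with 500 µM IAA, lentiDDX3X with 500 µM IAA, lentiCTRL with 500 µM IAA, and lentiCTRL with DMSO, each for 48 h. The introduced DDX3Y and DDX3X were FLAG-tagged cDNAs, and the infected cells were enriched by sorting. Cells were treated with cycloheximide before harvest, and the lysis buffer held it too. Each condition had 2 ribosome profiling and 2 RNA-seq libraries, 16 in all. Ribosome profiling sequences the RNA fragments shielded by ribosomes, and their number over a coding sequence, set against the RNA of the same gene, measures how heavily each message is occupied by ribosomes.

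The values here are base means, that is, the authors' means of normalized read counts over the 4 RNA-seq or the 4 ribosome profiling libraries of a table. One table pools lentiDDX3Y and lentiDDX3X, all with IAA, and the other pools lentiCTRL with IAA and lentiCTRL with DMSO. No library is in both. A base mean is 1 number for 2 conditions, with no value per library, so no replicate error, no test between conditions and no per-condition level is given for any gene. The depth of the single libraries is not in the tables. The median gene had an RNA base mean of 1084 in the lentiDDX3Y and lentiDDX3X table and 868 in the lentiCTRL table. Its ribo base mean was 52.7 in the lentiDDX3Y and lentiDDX3X table and 34.1 in the lentiCTRL table, so that footprints limit the precision. Of 10 markers of colorectal epithelium, 6 were listed in each table, namely EPCAM, CDH1, CDX2, KRT8, KRT18 and KRT19. KRT20, CDX1, VIL1 and LGR5 were in neither table. None of 4 immune and none of 3 endothelial markers was listed in either table, and COL1A1 was the only fibroblast marker of 4 to be listed, in the lentiCTRL table alone. DDX3X itself had an RNA base mean of 10518 in the lentiDDX3Y and lentiDDX3X table and of 6774 in the lentiCTRL table. The higher value is in the table that holds the lentiDDX3X libraries, and the part of the introduced cDNA in it was not tested. As the base mean pools conditions, it cannot check the label of a single library.

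Mitogen-activated protein (MAP) kinases such as ERK, JNK and p38 are active when a threonine and a tyrosine in their activation loop are phosphorylated, and the DUSPs called MAP kinase phosphatases switch them off. Several of these are themselves induced by the kinases, which forms a negative feedback loop. The list is broader than that. DUSP4, DUSP5 and DUSP6 are MAP kinase phosphatases with a kinase-binding domain. DUSP4 and DUSP5 are nuclear proteins and DUSP6 is cytoplasmic, and DUSP5 and DUSP6 act chiefly on ERK. DUSP3 (VHR) and DUSP14 are small atypical DUSPs that lack the kinase-binding domain and have been described to act on MAP kinases. DUSP11 (PIR1) acts mainly on RNA, from whose 5′ end it removes phosphates, and is not a MAP kinase phosphatase in that sense. The label "MAP kinase phosphatases" therefore fits part of the list.

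The listed genes share the catalytic signature of the protein tyrosine phosphatase superfamily, in which a cysteine attacks the phosphate and an arginine holds it. The coding bases of that signature are shown because they mark each gene as a member of the family. They run from the histidine codon before the cysteine to the arginine codon, 24 bases in each gene, on the coding strand of the canonical GENCODE v44 transcript (GRCh38), with the cysteine and arginine codons in capitals. The stretch was found once in each of the 5 coding sequences searched, and that of DUSP4 was not searched. It lies in a coding exon, at chr10:110510055-110510078 (plus strand) in DUSP5, chr12:89349503-89349526 (minus) in DUSP6, chr17:43769777-43769800 (minus) in DUSP3, chr2:73769285-73769308 (minus) in DUSP11 and chr17:37512600-37512623 (plus) in DUSP14.
DUSP5: cacTGTgaggctgggatctccCGT
DUSP6: catTGCttggctggcattagcCGC
DUSP3: cacTGCcgggaaggttatagcCGC
DUSP11: cacTGTacccatggtttaaacAGG
DUSP14: cacTGTgctgcaggggtgagcCGC
The cysteine is residue 263 of 384 in DUSP5, 293 of 381 in DUSP6, 124 of 185 in DUSP3, 152 of 330 in DUSP11 and 111 of 198 in DUSP14. In DUSP5 and DUSP6 it is thus preceded by a long amino-terminal part, which holds the kinase-binding domain.

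The genes fell into 2 sets by abundance, with the 3 MAP kinase phosphatases far above the 3 atypical members. Levels of different genes are compared per kb of coding sequence. DUSP6 was the most abundant, at an RNA base mean per kb of 13107 in the lentiDDX3Y and lentiDDX3X table and 9963 in the lentiCTRL table, above 98.3% and 98.2% of genes there. DUSP5 had 3579 per kb in the lentiDDX3Y and lentiDDX3X table and 6654 in the lentiCTRL table, and DUSP4 had 3333 and 2645 per kb in the same tables. These genes stood above more than 90% of the genes of each table. DUSP14 had 604 per kb in the lentiDDX3Y and lentiDDX3X table and 768 in the lentiCTRL table, DUSP3 had 611 and 524, and DUSP11 had 473 and 487. The medians of all genes were 729 per kb in the lentiDDX3Y and lentiDDX3X table and 602 in the lentiCTRL table. DUSP3 was above 41.3% and 43.8% of genes in these tables, DUSP14 above 40.7% and 60.9%, and DUSP11 above 28.3% and 40.5%. Their coding sequences are short, and without division by length they were above 5.62%, 6.70% and 13.7% of genes in the lentiDDX3Y and lentiDDX3X table (DUSP3, DUSP14 and DUSP11). From the highest to the lowest member the RNA level differed 27.7-fold in the lentiDDX3Y and lentiDDX3X table and 20.5-fold in the lentiCTRL table. DUSP3 and DUSP14 exchanged places between the tables, and the other members kept their order. Without a value per library, whether DUSP4 and DUSP5, or DUSP3, DUSP11 and DUSP14, differ beyond the spread between replicates cannot be said.

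**Figure D1:**
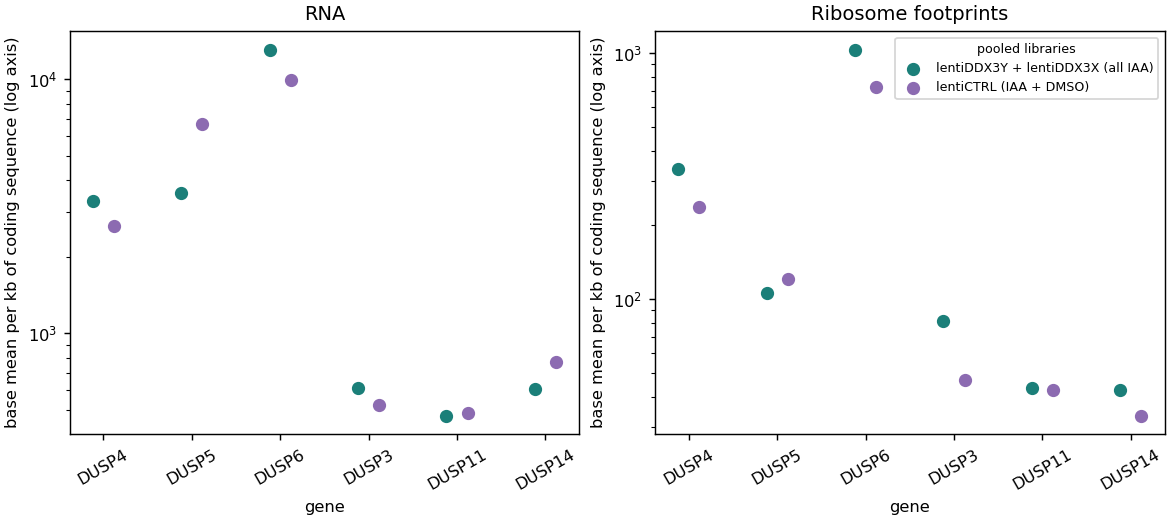
Base mean per kb of coding sequence (log y axes) of the 6 DUSP genes (x axes), for RNA on the left and ribosome footprints on the right. Each point is the authors' mean over the 4 libraries of a table, and DUSP6 is highest on both sides. In the lentiDDX3Y and lentiDDX3X table DUSP5 stands near DUSP4 for RNA (3579 against 3333 per kb) but below it for footprints (105 against 338 per kb). In the lentiCTRL table DUSP5 stands above DUSP4 for RNA (6654 against 2645 per kb) and below it for footprints (120 against 235 per kb).

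For footprints the MAP kinase phosphatases were again above the atypical members, but DUSP4 and DUSP5 changed places in both tables. DUSP6 had a ribo base mean per kb of 1032 in the lentiDDX3Y and lentiDDX3X table and 727 in the lentiCTRL table. DUSP4, with 338 per kb in the lentiDDX3Y and lentiDDX3X table and 235 in the lentiCTRL table, came second in both tables. DUSP5 had 105 per kb in the lentiDDX3Y and lentiDDX3X table and 120 in the lentiCTRL table. Its RNA was thus at or above that of DUSP4 while its footprints were below. Per kb, DUSP4 carried 0.931 times the RNA of DUSP5 but 3.20 times its footprints in the lentiDDX3Y and lentiDDX3X table, and 0.398 times the RNA but 1.96 times the footprints in the lentiCTRL table. DUSP3, the first of the atypical members, had 81.1 per kb in the lentiDDX3Y and lentiDDX3X table and 46.8 in the lentiCTRL table. DUSP11 had 43.5 and 42.6 per kb in these tables, and DUSP14 had 42.7 and 33.4.

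Footprints per RNA set DUSP5 apart from the other members in each table. The ratio of ribo to RNA base mean does not depend on gene length, but RNA and footprints were normalized separately, so it is read only relative to the median gene of the table. DUSP5 had RNA base means of 4124 in the lentiDDX3Y and lentiDDX3X table and 7665 in the lentiCTRL table, and ribo base means of 121 and 139. That is 29.5 footprints per 1000 RNA reads in the lentiDDX3Y and lentiDDX3X table and 18.1 in the lentiCTRL table, against 55.6 and 45.7 for the median gene of these tables. DUSP5 thus carried 0.530 times as many footprints per RNA as the median gene in the lentiDDX3Y and lentiDDX3X table and 0.395 times as many in the lentiCTRL table, above 16.8% and 12.9% of genes. Against genes whose RNA base mean lay within 2-fold of its own, DUSP5 was above 32.7% of genes in the lentiDDX3Y and lentiDDX3X table and 33.0% in the lentiCTRL table. Those genes were themselves below the median gene in this ratio, so the distance of DUSP5 from its neighbours was smaller than from all genes, at -0.56 in the lentiDDX3Y and lentiDDX3X table and -0.76 in the lentiCTRL table on the log2 scale.

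The other MAP kinase phosphatases were on the opposite side. DUSP4 had RNA base means of 3939 in the lentiDDX3Y and lentiDDX3X table and 3127 in the lentiCTRL table, with ribo base means of 399 and 278. Its footprints per RNA were 1.82 times the median gene in the lentiDDX3Y and lentiDDX3X table and 1.94 times in the lentiCTRL table. DUSP6 had RNA base means of 14981 and 11388 and ribo base means of 1179 and 831 in the same tables, which gave 1.42 and 1.59 times the median gene. Set against genes of like RNA, DUSP6 was 1.35 above their median in the lentiDDX3Y and lentiDDX3X table and 1.43 above it in the lentiCTRL table on the log2 scale. DUSP4 was 1.22 and 1.46 above it. An unnamed long noncoding RNA gene of the plus strand overlaps the coding part of DUSP6, which lies on the minus strand. The RNA libraries were stranded, but how the counting treated strand is not stated.

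Of the atypical members, DUSP3 had the most footprints per RNA, level with DUSP4 in the lentiCTRL table and above all other members in the lentiDDX3Y and lentiDDX3X table. It had RNA base means of 339 in the lentiDDX3Y and lentiDDX3X table and 291 in the lentiCTRL table and ribo base means of 45.0 and 26.0, and its footprints per RNA were 2.39 and 1.95 times the median gene. DUSP11 had RNA base means of 469 and 482 and ribo base means of 43.0 and 42.1 in these tables, with 1.65 and 1.91 times the median gene. DUSP14 was close to the median, at 1.27 times the median gene in the lentiDDX3Y and lentiDDX3X table and 0.952 times in the lentiCTRL table, from RNA base means of 359 and 456 and ribo base means of 25.4 and 19.9. Both tables leave out genes with few footprints, since every ribo base mean is above 20 in the lentiDDX3Y and lentiDDX3X table and above 10 in the lentiCTRL table. A gene of low RNA is therefore listed only if its ratio is high enough to pass the limit. That limit is lower in the lentiCTRL table, where DUSP14 is listed although it lies below the median gene. Among genes of like RNA, DUSP3 stood 0.86 above the median in the lentiDDX3Y and lentiDDX3X table and 0.61 above it in the lentiCTRL table (log2 scale), DUSP11 0.48 and 0.79 above it, and DUSP14 at -0.03 and -0.24.

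**Figure D2:**
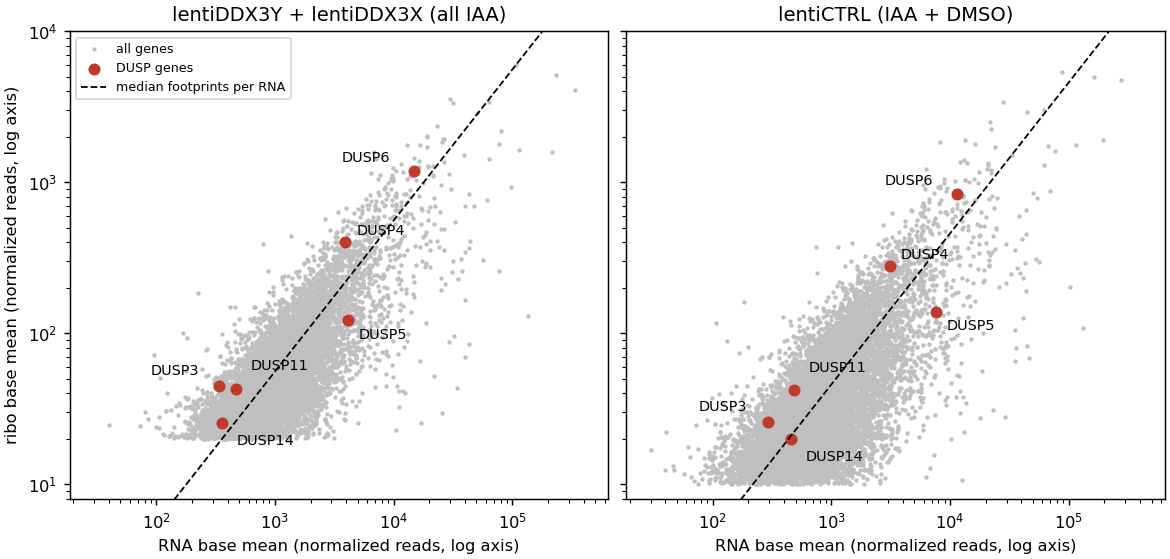
RNA base mean (x axes) and ribo base mean (y axes) of all genes in grey and of the 6 DUSP genes in red, on log axes, for the lentiDDX3Y and lentiDDX3X table on the left and the lentiCTRL table on the right. The dashed line marks the footprints per RNA of the median gene (55.6 and 45.7 per 1000 RNA reads); DUSP5 lies below it in both panels, and DUSP3, DUSP4, DUSP6 and DUSP11 lie above it.

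Of the 6 genes, 5 were above the median gene in footprints per RNA in the lentiDDX3Y and lentiDDX3X table and 4 in the lentiCTRL table, where DUSP14 was just below, against 50.0% of all genes by construction. In the lentiDDX3Y and lentiDDX3X table, a gene with as little RNA as DUSP3 or DUSP14 is listed only if it lies above the median gene, so their side was fixed by the limit on footprints and the count says nothing of them. The median of the 6 was 0.61 on the log2 scale in the lentiDDX3Y and lentiDDX3X table and 0.80 in the lentiCTRL table. The interquartile range of all genes was -0.61 to 0.50 in the lentiDDX3Y and lentiDDX3X table and -0.76 to 0.60 in the lentiCTRL table. The list was chosen with measured values known and was not tested, and its medians rest on members that passed the limit on footprints. Of the other members of the family, DUSP23 had 0.76 and 0.74 in these tables. STYX, a catalytically inactive relative, had -1.03 and STYXL1 had -0.23 in the lentiCTRL table, from ribo base means of 14.6 and 15.3.

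The genes around the phosphatases in the pathway differed in the same measure. By construction, 50.0% of all genes are above the median gene in each table, and only genes that passed the limit on footprints are listed. Values against genes of like RNA are not given for these lists. Of 10 MAP kinases 8 were listed in each table, with medians of -0.39 in the lentiDDX3Y and lentiDDX3X table and -0.21 in the lentiCTRL table on the log2 scale, and 4 of the 8 were below the median gene in each table. MAPK9, a JNK, was lowest at -1.34 and -1.93, and MAPK3 (ERK1) was highest in the lentiCTRL table at 0.50. Of 13 RAS, RAF and MAP2K genes, which act upstream, 10 were listed in the lentiDDX3Y and lentiDDX3X table and 11 in the lentiCTRL table. Their medians were -0.48 and -1.19 in these tables. Below the median gene were 8 of 10 in the lentiDDX3Y and lentiDDX3X table and 10 of 11 in the lentiCTRL table. BRAF was lowest in the lentiCTRL table at -1.97. The products of SPRY and SPRED genes are further feedback inhibitors of ERK signalling. Of 7, 3 were listed in the lentiDDX3Y and lentiDDX3X table and 4 in the lentiCTRL table, all below the median gene. SPRED1 was the lowest of them at -1.94 and -3.08, and SPRY4 the highest at -0.25 and -0.16. Of 9 transcription factors and other genes induced by ERK, 8 were listed in each table, and 7 of the 8 were above the median gene. The 8 ran from ETV4 at -0.76 and -0.90 to IER3 at 1.05 and 1.37. DUSP5 lay within the ranges of the SPRY and SPRED genes, of the MAP kinases and of the RAS, RAF and MAP2K genes in both tables.

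**Figure D3:**
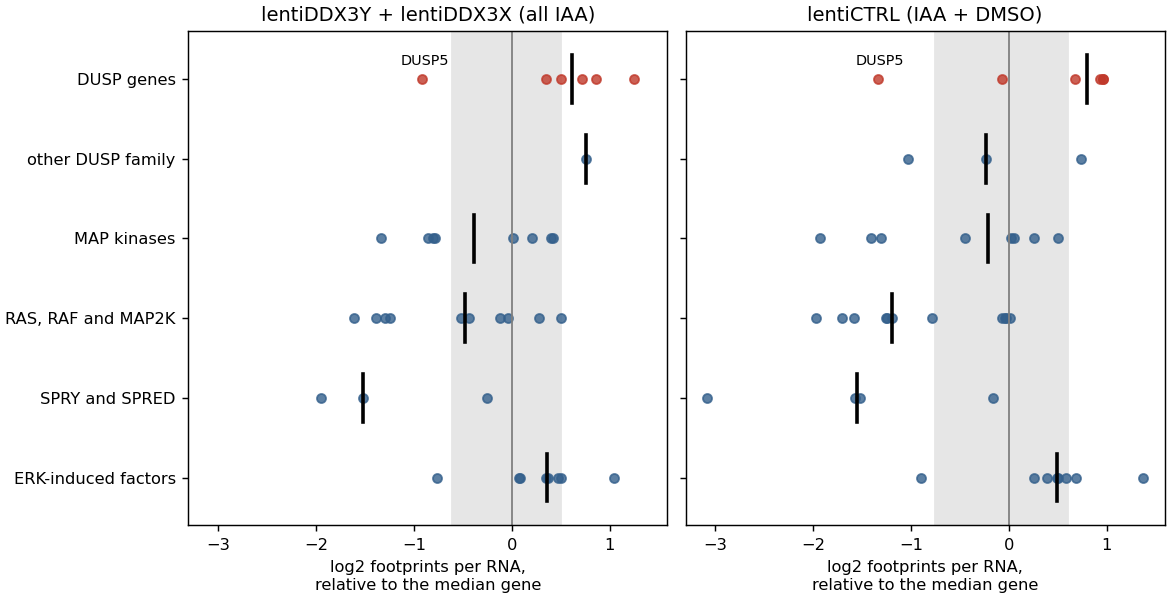
Log2 footprints per RNA relative to the median gene of the table (x axes) for the 6 DUSP genes in red and for the related gene lists in blue (y axis), for the lentiDDX3Y and lentiDDX3X table on the left and the lentiCTRL table on the right. Each point is a gene, black bars are list medians and the grey band is the interquartile range of all genes; DUSP5 lies left of the band at -0.92 and -1.34, while the medians of the DUSP genes are 0.61 and 0.80.

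The base means of DUSP5 also differed between the tables. DUSP5 had been picked because its RNA and translation stood out in comparisons of these same libraries, so its rank here is not independent support. The tables were normalized separately, so for each gene the lentiDDX3Y and lentiDDX3X base mean over that of lentiCTRL is given relative to the median of the 7386 shared genes, which was 0.12 for RNA and 0.37 for ribo on the log2 scale. This comparison was chosen after seeing the data. For RNA, DUSP5 was 0.495 times as high in the lentiDDX3Y and lentiDDX3X table (log2 -1.01), and 3 of the 7386 genes had a lower value. DUSP5 was the 1 member over 2-fold lower, as were 5 genes in all (0.0677%). The range from the 5th to the 95th percentile was -0.45 to 0.44. The footprints of DUSP5 were 0.681 times as high (log2 -0.55), with 203 genes lower (2.75%). In either direction, 32 genes for RNA and 664 for footprints lay at least as far from the median as DUSP5, itself included. No member was over 2-fold lower for footprints, against 0.149% of genes. DUSP4 and DUSP6 lay on the other side for RNA at 1.16 and 1.21 times, and for footprints at 1.11 and 1.10 times. DUSP14 was 0.723 times as high for RNA and 0.992 times as high for footprints. DUSP3 was at 1.07 and 1.34 times, and DUSP11 at 0.894 and 0.793 times. Within a table, where the scaling cancels, DUSP6 had 3.66 times the RNA of DUSP5 per kb in the lentiDDX3Y and lentiDDX3X table and 1.50 times in the lentiCTRL table. The tables differ in the introduced cDNA, and DMSO libraries are in the lentiCTRL table alone, and these cannot be told apart. Footprints per RNA of DUSP5 were 1.40 times as high in the lentiDDX3Y and lentiDDX3X table, above 89.1% of the shared genes, and those of DUSP14 likewise at 1.40 times. For the other members this ratio lay between 0.904 times for DUSP11 and 1.28 times for DUSP3.

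DDX3X is known to help ribosomes start on messages whose 5′ leaders fold tightly, so the leaders of the 6 genes were described from the canonical GENCODE v44 transcripts. The leader of DUSP5 (chromosome 10, 110497907 to 110511533, plus strand) was the most structured, with 215 nt, a GC content of 84.2% and a predicted folding energy of -0.651 kcal/mol per nt. Only 0.550% of genes in the lentiDDX3Y and lentiDDX3X table and 0.521% in the lentiCTRL table had a lower energy per nt, and its GC content was above 96.5% and 96.6% of genes. DUSP3 had a GC content nearly as high, 83.0%, but in a leader of 53 nt and with -0.351 kcal/mol per nt, above 57.2% and 57.4% of genes. Those of DUSP4 and DUSP6 were long, at 406 and 462 nt, with GC contents of 70.2% and 58.2% and energies of -0.479 and -0.426 kcal/mol per nt. The energy of DUSP4 was above that of 20.9% of genes in the lentiDDX3Y and lentiDDX3X table and 20.7% in the lentiCTRL table, although its footprints per RNA were above those of 88.9% and 86.6%. DUSP11 and DUSP14 had leaders of 129 and 248 nt, GC contents of 62.8% and 57.7% and energies of -0.381 and -0.309 kcal/mol per nt. The medians of all genes in the lentiCTRL table were 123 nt, 68.4% and -0.377 kcal/mol per nt. Across all genes, footprints per RNA went with folding energy with a Spearman rho of 0.34 over 7093 genes in the lentiDDX3Y and lentiDDX3X table and 0.44 over 8249 genes in the lentiCTRL table. For GC content of the leader, rho was -0.12 over 7345 genes in the lentiDDX3Y and lentiDDX3X table and -0.19 over 8551 genes in the lentiCTRL table. Genes share their libraries and base composition, so these are descriptions, and the part of leader length in them was not tested. Which leader the cells use was not measured. Base means pool conditions, and a link between the leader of DUSP5 and its footprints per RNA, or its dependence on DDX3X, was not tested. DUSP5 also has the pseudogenes DUSP5P1 and DUSP5P2, by symbol, in GENCODE v44. Reads shared with them could not be assessed from the tables, and their part in the values of DUSP5 was not tested.

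**Figure D4:**
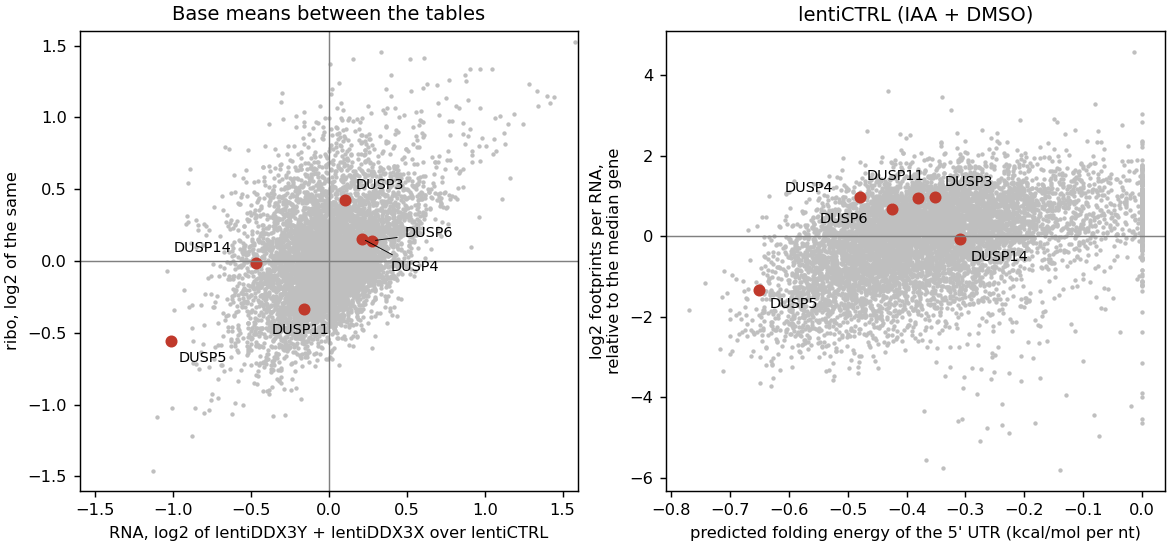
Left, log2 of the lentiDDX3Y and lentiDDX3X base mean over the lentiCTRL base mean relative to the median of the shared genes, for RNA (x axis) and ribo (y axis), with 9 genes outside the axes; DUSP5 is at -1.01 and -0.55. Right, predicted folding energy of the 5′ UTR (x axis, kcal/mol per nt) and log2 footprints per RNA relative to the median gene (y axis) in the lentiCTRL table; all genes are grey and the 6 DUSP genes red, with DUSP5 farthest to the left of them at -0.651.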

How the data were processed

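The authors trimmed adapters, collapsed UMIs, removed reads on rRNA and other small RNAs, mapped the rest to hg38 and counted reads over 24 nt in length on coding sequences with Ribo-seQC. Among the tools in the submitters' processing notes are STAR 2.6.0a, cutadapt and Bowtie2. The annotation release is not given in the sources used here. DESeq2 served the authors for normalization. The base means deposited by the authors, treated here as a score with no fixed range, are means of counts divided by size factors over the 4 libraries of a table. The tables also hold the authors' log2 fold changes, adjusted p-values and classes for RNA, ribo and translation efficiency, and a base mean over both library types; these were not used. Groups were read from the sample titles. As no value per library is in the tables, no test was made.

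Computed here were base means per kb of coding sequence, and log2 of ribo over RNA base mean relative to the median gene of the same table, with the share of genes below (Python 3.11.15, pandas 2.3.3, SciPy 1.17.1). Genes were matched to GENCODE v44 by gene ID without its version. A coding length was found for 99.9% of genes in each table, a 5′ UTR of at least 10 nt for 98.8%, and a folding energy (RNAfold 2.7.2, UTRs up to 600 nt) for 95.4% in the lentiDDX3Y and lentiDDX3X table and 95.3% in the lentiCTRL table. Lengths are those of the Ensembl canonical transcript, without the stop codon; where its 5′ UTR was shorter than 10 nt, the longest of the gene was taken. The calculation of relative ratios was tested on simulated data. All 10 listed DUSP genes were to be named, with the lowest and the highest gene of each related list, of which some are not reported here. The members and lists were chosen with earlier results of these data known. Alternatives were base means above 20 or above 100, genes of like RNA level, a pseudocount of 10, subsets of the members and levels without division by length.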

Additional observations from a re-analysis of the deposited data

How the results depend on the processing

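The median footprints per RNA of the 6 DUSP genes stood above that of 80.2% of genes in the lentiDDX3Y and lentiDDX3X table and of 82.0% in the lentiCTRL table, and it stayed above the median gene under all 12 alternatives computed. Only members that passed the limit on footprints enter this median, so its staying above is no support for a high ratio of the family. With base means above 100, where DUSP4, DUSP5 and DUSP6 alone are left, the median was above 60.7% and 56.9%, and against genes of like RNA level above 82.3% and 78.7%. The members with a kinase-binding domain alone gave 74.8% and 77.6%, and the list without DUSP5 gave 84.5% and 85.8%. In the lentiCTRL table, base means above 20, which leave out DUSP14, gave 83.1%, and a pseudocount of 10 gave 70.4%. For single members, footprints per RNA kept their side of the median gene in 39 of 41 alternatives. The exceptions were both for DUSP14, at -0.03 on the log2 scale against genes of like RNA in the lentiDDX3Y and lentiDDX3X table, and at 0.10 with a pseudocount of 10 in the lentiCTRL table. DUSP5 was below the median gene in each. In the lentiDDX3Y and lentiDDX3X table every gene has base means above 20, so that alternative changed nothing there for the median or for any member. The limit on footprints fixed the sides of DUSP3 and DUSP14 against all genes in that table. Base means above 20 likewise fixed the side of DUSP3 in the lentiCTRL table. The 39 of 41 therefore include alternatives whose outcome could not differ, and the count says nothing of those. For RNA levels, leaving out the division by length moved DUSP14 in the lentiCTRL table to the other side of the median, above 23.8% of genes against 60.9% with it. The other atypical levels kept their side but were lower, at 5.62% for DUSP3, 6.70% for DUSP14 and 13.7% for DUSP11 in the lentiDDX3Y and lentiDDX3X table, and at 10.5% for DUSP3 and 25.5% for DUSP11 in the lentiCTRL table. No paired analysis was possible because the tables hold no value per library, and for the same reason leaving out a replicate in turn was not run. The cause of these shifts was not tested. Counting error is largest for DUSP14, with the fewest footprints, and its size is not known without the size factors.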

Other observations

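The listed DUSP genes in the tables took 0.152% of the summed RNA base means of the lentiDDX3Y and lentiDDX3X table and 0.150% of those of the lentiCTRL table. Of the summed ribo base means they took 0.247% and 0.221%. The leaders of DUSP3 and DUSP5 differed little in GC content, at 83.0% and 84.2%, but more in energy per nt, at -0.351 and -0.651 kcal/mol. They are 53 and 215 nt long, and the part of length in the energies was not tested. Coding GC content was 61.4% in DUSP5, 64.9% in DUSP4 and 56.8% in DUSP6, and 43.4% in DUSP11, which was above 16.8% of genes in the lentiDDX3Y and lentiDDX3X table and 17.0% in the lentiCTRL table.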
